A study of Mus musculus with 6 samples.

Results

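The enzymes and regulators of cholesterol synthesis described here are 7 genes, Hmgcs1, Idi1, Fdft1, Sqle, Dhcr7, Srebf2 and Insig1, taken as a given list out of 55450 annotated genes. They comprise 5 enzymes of the pathway and 2 genes of its feedback control, and none of them encodes an uptake receptor or a transporter, so uptake is described from other genes further on. The genes were not chosen by a threshold. Tags of cap analysis of gene expression (CAGE), which marks the capped 5′ ends of RNAs, were summed on the gene's strand within 500 bp of every annotated 5′ end and are given per 1000000 tags of the library (TPM).

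The series holds nuclear RNA of 2 mouse lines, in 3 libraries each. R08 mouse embryonic stem cells (mESCs) grew without feeders in medium with 15% FBS and 1000 U/ml LIF. Oli-neu, an established line of the oligodendrocyte progenitor lineage (mOPCs), grew on poly-L-lysine in serum-free N2 medium. This medium held 340 ng/ml T3, 400 ng/ml L-thyroxine, 10 ng/ml bFGF and 1 ng/ml PDGF-BB. No treatment or genetic change was compared, and each cell type is represented by 1 line. The line, its medium with or without serum lipids, and a library label that all libraries of a line share go together, so their effects cannot be told apart. The study calls cells of different passages biological replicates, but its methods do not apply this term to these libraries, and whether the libraries of a line came from separate cultures is not stated, so the p-values measure only the spread between these libraries.

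Cholesterol is built from acetyl-CoA through mevalonate and isoprenoid units, which are joined to squalene and closed and trimmed to the sterol. The pathway is switched on by SREBP-2, a membrane-bound transcription factor that is released when sterol runs low, while INSIG proteins hold it in the endoplasmic reticulum when sterol is plentiful. Cells can instead take cholesterol up from lipoproteins, and oligodendrocytes are known for making large amounts of it for myelin.

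The libraries held between 16657021 and 40928704 tags. All 9 mESC markers were present at 1 TPM or more in every mESC library, and 8 of the 9 oligodendrocyte lineage markers were present in every mOPC library, where Nkx2-2 had no tag. Summed mESC markers came to 4299 to 4693 TPM in mESCs and 41.3 to 46.1 in mOPCs. Summed oligodendrocyte lineage markers came to 8.92 to 10.3 TPM in mESCs and 2468 to 2619 in mOPCs. Among them Pdgfra differed little, at 5.41 to 5.70 TPM in mESCs and 7.82 to 8.60 in mOPCs. Of markers of other cells, the 5 neuronal ones summed to 279 to 305 in mESCs, nearly all of it Stmn2, and to 81.3 to 102 in mOPCs, nearly all of it Syt1. Primitive endoderm markers summed to 65.2 to 81.5 in mESCs, most of it Dab2, and 56.4 to 62.3 in mOPCs, nearly all of it Dab2. Gata6, Sox17 and Foxa2 had no tag in mOPCs, and Gata4 nearly none. Astrocyte markers summed to 46.7 to 50.7 in mESCs and 96.1 to 110 in mOPCs, most of it Slc1a3 in both. Fibroblast and microglia markers each summed to no more than 12.3 in any library. The part of such markers in the results below was not tested. As in any bulk sample, fewer cells using a gene and less RNA per cell cannot be told apart.

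Promoter sequences show where the starts described below lie. RefSeq sequences on the GRCm38.p6 build, which reach from 250 bases before to 50 after a gene's start, were matched for 5 of the 7 genes, as 7 entries. The 4 entries shown are those that hold the gene's most used start and that of Hmgcs1, which holds a second start whose use differed between the cell types. The Idi1 entry and an upstream Dhcr7 entry also hold such second starts, at 8885637 and 143823086, but are not shown. Capitals mark 5 motifs found on either strand: TCACNCCA, the core of the sterol regulatory element, CCAAT, the GC box GGGCGG, the E-box CACGTG, and TATAA. Among all 32851 promoters of this length, 4.36% held TCACNCCA, 37.4% CCAAT, 35.7% GGGCGG, 7.15% CACGTG and 24.9% TATAA.
Hmgcs1, chr13:119690101-119690400, plus strand: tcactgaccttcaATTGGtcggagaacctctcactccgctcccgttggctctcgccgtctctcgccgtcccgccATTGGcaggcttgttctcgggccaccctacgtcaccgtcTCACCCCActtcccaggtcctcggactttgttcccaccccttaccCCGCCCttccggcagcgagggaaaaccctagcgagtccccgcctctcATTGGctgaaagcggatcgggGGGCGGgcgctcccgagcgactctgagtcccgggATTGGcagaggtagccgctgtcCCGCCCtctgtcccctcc
Srebf2, chr15:82147019-82147318, plus strand: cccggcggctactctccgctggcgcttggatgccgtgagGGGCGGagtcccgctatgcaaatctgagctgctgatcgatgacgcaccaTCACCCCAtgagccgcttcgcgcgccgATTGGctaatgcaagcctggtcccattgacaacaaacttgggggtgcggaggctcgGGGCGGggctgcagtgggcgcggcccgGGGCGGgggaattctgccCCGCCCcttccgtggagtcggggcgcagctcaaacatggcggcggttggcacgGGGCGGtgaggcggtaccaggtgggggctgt
Insig1, chr5:28071162-28071461, plus strand: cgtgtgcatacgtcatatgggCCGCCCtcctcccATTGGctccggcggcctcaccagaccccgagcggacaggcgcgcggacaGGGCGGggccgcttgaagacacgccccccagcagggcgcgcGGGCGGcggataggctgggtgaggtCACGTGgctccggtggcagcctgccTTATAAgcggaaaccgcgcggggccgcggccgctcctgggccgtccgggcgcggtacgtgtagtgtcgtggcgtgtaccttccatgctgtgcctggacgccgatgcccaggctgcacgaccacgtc
Dhcr7, chr7:143829964-143830263, plus strand: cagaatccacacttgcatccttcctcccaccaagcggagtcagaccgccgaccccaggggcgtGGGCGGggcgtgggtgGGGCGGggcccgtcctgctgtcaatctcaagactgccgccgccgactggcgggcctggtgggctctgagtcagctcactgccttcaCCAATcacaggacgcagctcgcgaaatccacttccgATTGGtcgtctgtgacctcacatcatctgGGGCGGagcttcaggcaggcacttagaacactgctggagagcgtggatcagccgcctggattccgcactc

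TCACNCCA was found once in the Hmgcs1 entry, at bases 114 to 121, and once in that of Srebf2, at bases 89 to 96. No other of the 7 entries held it, shown or not. The Hmgcs1 entry also held 4 CCAAT motifs. The Insig1 entry held CACGTG 52 bp before its most used start, which is base 202, and TTATAA, read as TATAA on both strands, beginning 27 bp before it. A match describes letters only and does not show that a factor binds there.

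Of the 7 genes, 6 differed between mESCs and mOPCs in the quasi-likelihood test of edgeR (Benjamini-Hochberg adjusted p under 0.05 over 18490 genes), 3 higher in mOPCs and 3 lower. Across all genes tested, 91.2% passed this threshold, 42.7% as higher and 48.5% as lower in mOPCs, so the members' count was near that of any genes. Sqle, Insig1 and Dhcr7 rose, while Idi1, Fdft1 and Hmgcs1 fell. The median size of the change was 0.87 on the log2 scale for the 7 genes and 1.71 over all genes, or 1.24 over the 11128 genes whose mean reached 10 TPM. A call with a log2 change of at least 1 was made for 3 of the 7 genes and for 67.1% of all genes. Idi1 was the only member whose change was larger than the median of all genes. Summed over the 7 genes, the level ranged from 666 to 676 TPM in mESCs and from 612 to 687 in mOPCs, and these ranges overlap.

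**Figure D1:**
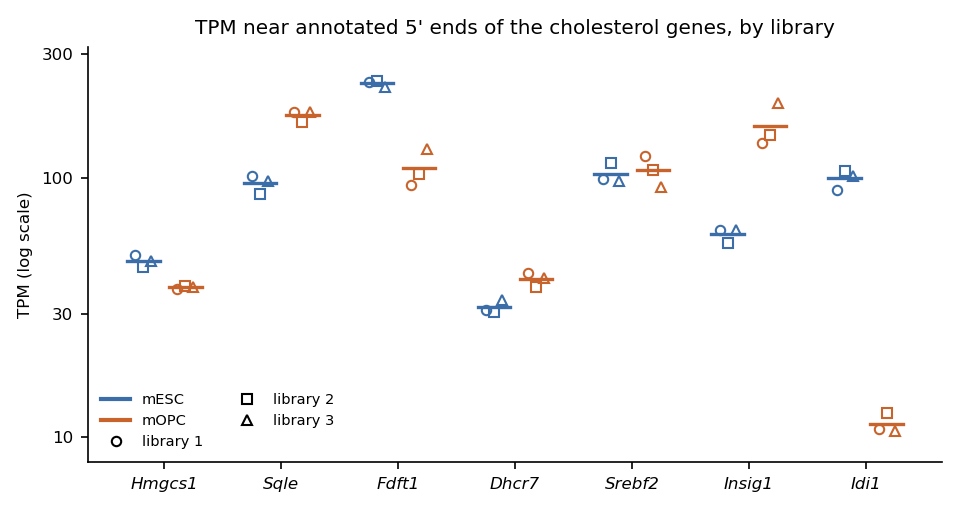
TPM (log axis) within 500 bp of annotated 5′ ends for each gene in the 3 mESC and 3 mOPC libraries, with horizontal bars at the means. Idi1 fell to between 10.6 and 12.4 TPM in mOPCs, and Srebf2 alone has libraries of both cell types at the same levels.

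Hmgcs1, which makes HMG-CoA at the entry of the mevalonate pathway (ENSMUSG00000093930.2, chromosome 13, 119690379 to 119708260, plus strand, mm10), had 50.3, 45.5 and 47.9 TPM in mESCs and 37.3, 38.4 and 38.1 in mOPCs. Every mOPC library lay below every mESC library. The log2 change was -0.34 ± 0.08 (SE, n = 3 and 3 libraries), with an edgeR adjusted p of 0.000265, and 87.9% of all genes changed more.

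Idi1, which interconverts the 2 basic isoprenoid units (ENSMUSG00000058258.14, chromosome 13, 8885501 to 8892451, plus strand), had 89.9, 107 and 102 TPM in mESCs and 10.8, 12.4 and 10.6 in mOPCs. Its mean was 8.83-fold higher in mESCs by the fit. This was the largest change among the 7 genes, with a log2 value of -3.14 ± 0.10 (SE) and an edgeR adjusted p of 9.23e-27, and 30.7% of all genes changed more.

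Fdft1, squalene synthase, which commits isoprenoids to sterols (ENSMUSG00000021273.10, chromosome 14, 63145150 to 63179578, minus strand), had 234, 236 and 225 TPM in mESCs and 94.3, 104 and 130 in mOPCs. It was the member with the most tags in mESCs. Its log2 change was -1.08 ± 0.09 (SE; edgeR adjusted p 5.34e-12). The mOPC libraries were less alike than the mESC libraries, with coefficients of variation of 16.8% and 2.56%.

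Sqle, squalene epoxidase, which adds the oxygen before ring closure and is a rate-limiting step (ENSMUSG00000022351.14, chromosome 15, 59315077 to 59331192, plus strand), went the other way from Fdft1, the enzyme just before it. Its libraries held 102, 86.7 and 97.5 TPM in mESCs and 179, 165 and 180.1 in mOPCs. The groups did not overlap, and the log2 change was 0.87 ± 0.08 (SE; edgeR adjusted p 1.75e-12).

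Dhcr7, which reduces 7-dehydrocholesterol to cholesterol (ENSMUSG00000058454.15, chromosome 7, 143823145 to 143848410, plus strand), had 31.0, 30.4 and 33.9 TPM in mESCs and 43.0, 38.1 and 41.0 in mOPCs. The increase in mOPCs was small, at 0.36 ± 0.09 on the log2 scale (SE; edgeR adjusted p 0.000232), though all mOPC libraries lay above all mESC libraries.

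Srebf2, which encodes SREBP-2 (ENSMUSG00000022463.8, chromosome 15, 82147181 to 82205379, plus strand), had 99.0, 115 and 97.0 TPM in mESCs and 122, 108 and 92.2 in mOPCs. The 2 groups overlapped. The log2 difference was 0.05 ± 0.09 (SE; edgeR adjusted p 0.603). Counting within 100 bp of the 5′ ends instead gave -0.30 with an adjusted p of 0.0113, and the adjusted p over all alternatives ranged from 0.0113 to 0.954.

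Insig1, which retains SREBP-2 when sterol is plentiful and is itself a target of it (ENSMUSG00000045294.11, chromosome 5, 28071363 to 28078662, plus strand), had 63.0, 56.0 and 63.0 TPM in mESCs and 136, 146 and 195 in mOPCs. It rose the most of the 7 genes, by 1.39 ± 0.11 on the log2 scale (SE; edgeR adjusted p 1.31e-09), or 2.63-fold. The mOPC libraries varied by 19.6% of their mean. Among them, library 3 was the highest for Insig1 and Fdft1 and the lowest for Srebf2, and without it the log2 change was 1.22 for Insig1 and -1.23 for Fdft1.

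CAGE gives 1 tag per captured 5′ end, so levels per gene do not scale with transcript length and can be ordered. In mESCs Fdft1 stood above Srebf2, Idi1 and Sqle, whose neighbouring libraries overlapped, and these stood above Insig1, Hmgcs1 and Dhcr7, which were separated from each other. In mOPCs Sqle and Insig1 came first and overlapped, then Fdft1 and Srebf2, which overlapped, then Dhcr7 and Hmgcs1, which overlapped, and Idi1 was last and apart.

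The related genes moved in both directions as well. Of 56 other genes of 6 lists, all were tested, 30 were higher in mOPCs, 20 lower and 6 did not pass, which is 89.3% called beside the 91.2% of all genes. Their median log2 change was 0.25, beside -0.16 for all genes and 0.02 for genes whose mean reached 10 TPM.

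Of 7 further genes of the mevalonate arm, 3 were higher and 4 lower in mOPCs. Ggps1, which makes geranylgeranyl diphosphate, fell the most at -1.42. Mvk and Mvd, which phosphorylate and decarboxylate mevalonate, fell by 0.62 and 0.69, while Pmvk rose by 0.78 and Fdps, which makes farnesyl diphosphate, by 0.32, all on the log2 scale. Of 10 genes of the sterol arm, 6 were higher and 2 lower. Hsd17b7 at 1.32, Sc5d at 1.07 and Lss, which closes the rings of squalene epoxide, at 0.90 were the highest. Lbr at -0.86 and Msmo1 at -0.65 were the lower ones. Ebp, a sterol isomerase, passed at 0.26, a call that was lost under 10 of 14 alternatives. These names of the synthesis arms were chosen after their values were seen.

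Of 11 genes of sterol sensing and SREBP processing, 5 were higher, 5 lower and 1 did not pass. Mbtps2, the second protease that frees SREBP from the membrane, fell by 2.49, from a mean of 277 to 49.5 TPM. Vcp, which extracts ubiquitinated proteins from the membrane, fell by 2.52. Chosen after their values were seen, Scap, the escort of SREBP, rose by 1.69, Insig2 rose by 1.09 and Srebf1, the second SREBP gene, fell by 1.74, or by 1.18 within 100 bp of the 5′ ends.

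Of 14 genes of uptake, transport, storage and efflux, 9 were higher in mOPCs, 3 lower and 2 did not pass. Vldlr, a lipoprotein receptor, rose by 3.02 on the log2 scale, with 7.94, 9.73 and 8.90 TPM in mESCs and 70.0, 67.5 and 74.4 in mOPCs. Lrp1, another receptor of this family, rose by 2.50, and Abca1, which exports cholesterol to apolipoproteins, by 2.40. With all tags inside the gene counted, these changes were 1.86 and 1.81. The exporter Abcg1 had 818 tags over the mESC libraries and none in mOPCs, which is at least 343-fold lower when 3 tags over the pooled mOPC libraries are taken as the floor. Such bounds cover counting error only. With all tags inside the gene counted, the fitted log2 change of Abcg1 was -7.32. In fatty acid synthesis 5 of 8 genes were higher and 3 lower, led by Acss2 at 2.89, which makes acetyl-CoA from acetate, and Elovl6 at -2.08, an elongase, which was at -1.09 when all tags inside the gene were counted. Of 6 genes of isoprenoid branches, 2 were higher, 3 lower and 1 did not pass. The changes of all these related genes are from the same edgeR fit.

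**Figure D2:**
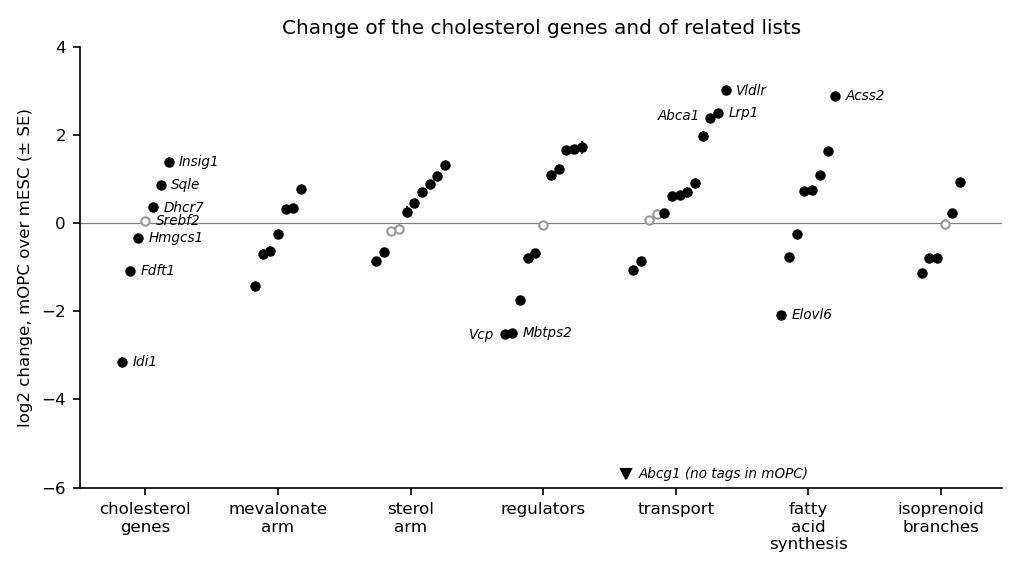
Log2 change of mOPCs over mESCs with SE for the 7 cholesterol genes and 6 lists of related genes, filled where the edgeR adjusted p was under 0.05. Each list spans both sides of 0, and the arrowhead stands for Abcg1, which had no tags in mOPCs and lies off the axis.

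Start positions were examined next, since the summed levels above do not show them. The leading position is the one with the most TPM over the 6 libraries, so the cell type with more tags there weighs more in its choice. For Sqle and Hmgcs1 it was the most used position in every mOPC library. No mESC library led there for Sqle, and only library 2 did for Hmgcs1. A higher mOPC share at that position is therefore partly fixed by its definition for these genes. The share of a gene's tags at its leading position did not overlap between the cell types for 5 of 7 members, beside 71.1% of genes with at least 10 TPM in both. With 3 libraries against 3 an exact two-sided permutation test gives no p below 0.1, which all 5 reached (0.14 after adjustment over the 7 genes).

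Hmgcs1 shifted its starts downstream in mOPCs. At its leading position, 119690461, 1 bp before an annotated 5′ end, lay 12.7, 13.7 and 10.3% of tags in mESCs and 22.2, 24.2 and 25.0% in mOPCs. Within 5 bp of it the share was 35.1% ± 3.35 in mESCs and 72.4% ± 2.69 in mOPCs (SD, n = 3). Over tags within 100 bp of that position, the mean start moved from -28.9 to -7.05 bp relative to it. Of genes with at least 10 TPM in both cell types, 4.02% moved further. All 7 genes had mean starts, taken in this way, that did not overlap between the cell types, beside 80.7% of those genes. This distance held 72.8% of mOPC tags for Dhcr7, 76.6% for Srebf2 and 78.0% for Idi1, so starts further away are not in these means. The Hmgcs1 tags within this distance also became more focused, the spread between the 10th and the 90th percentile narrowing from 72.7 to 39.0 bp. This spread separated the cell types for 4 of the 7 genes, beside 57% of those genes. In mESCs a second site 36 bp upstream was used about as much, at 12.8% ± 0.36 against 5.11% ± 0.82 in mOPCs. A separate cluster further upstream, at 119690376 to 119690394 inside the sequence printed above, held 18.2% ± 2.75 of tags in mESCs and 2.08% ± 0.62 in mOPCs. The main cluster went from 34.8 ± 2.06 TPM in mESCs to 34.7 ± 0.78 in mOPCs, so the drop of Hmgcs1 lay outside it.

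Sqle shifted in the same direction. The most used position was 59315037 in all mESC libraries and 59315073, 36 bp downstream, in all mOPC libraries. The downstream position held 6.52% ± 0.55 of tags in mESCs and 11.8% ± 0.64 in mOPCs, while the upstream one fell from 10.2% ± 0.99 to 1.70% ± 0.19. In TPM the upstream position dropped from 9.83 to 2.97 although Sqle as a whole rose. Over tags within 100 bp of the downstream position, the mean start moved from -14.4 to 4.61 bp relative to it. Of genes with at least 10 TPM in both cell types, 5.90% moved further. A minor position at 59315014 had 33, 19 and 25 tags in mESCs but 0, 1 and 0 in mOPCs.

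**Figure D3:**
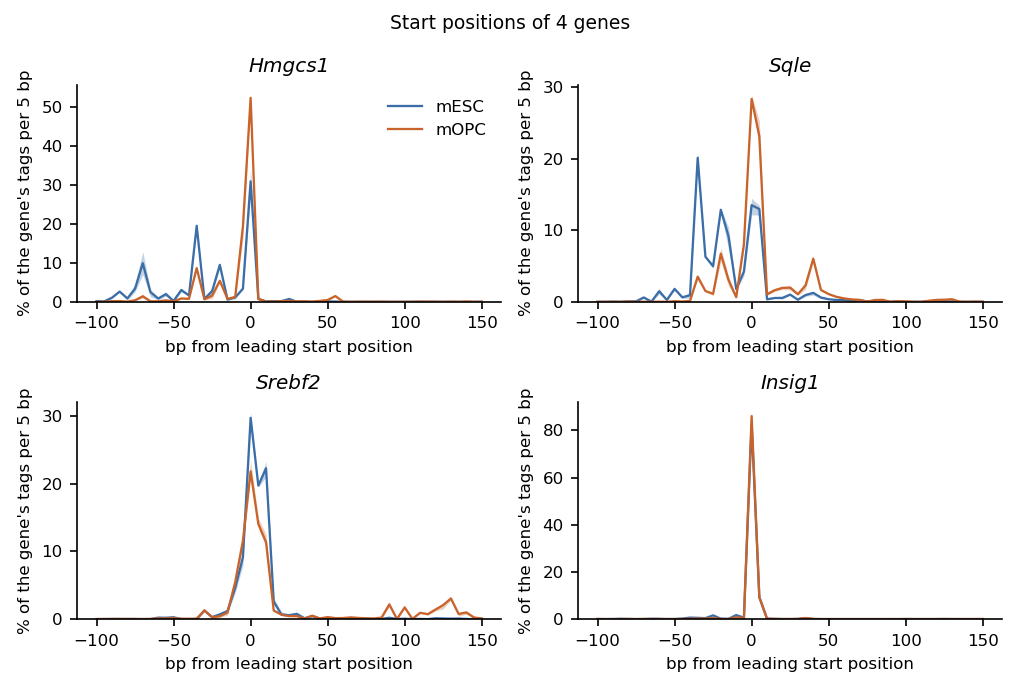
Share of each gene's tags per 5 bp by distance from its leading start position, as means of 3 mESC and 3 mOPC libraries with bands from the lowest to the highest library. Hmgcs1 and Sqle lose upstream starts in mOPCs, Srebf2 gains starts more than 90 bp downstream, and Insig1 keeps 1 sharp peak.

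Insig1 differed from these in shape. Its starts sat at 1 position, 28071363, which is the annotated 5′ end, with 63.2% ± 2.34 of mESC tags and 69.7% ± 1.36 of mOPC tags (SD, n = 3). Of all tags 92.5% and 95.7% lay within 5 bp, and the spread was 4.67 bp in both cell types. The rise in Insig1 was therefore counted at the same base, where the level went from 38.3 to 111 TPM. This start is the one that follows the TATAA motif in the printed sequence.

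Use of start clusters was tested within genes, with positions of at least 1 TPM in at least 1 library joined up to 20 bp. A cluster could thus enter through 1 cell type alone. This makes differing shares more likely among the clusters tested, for the members and for all genes. The members had 19 clusters, of which 18 belonged to the 6 genes with 2 or more. In the differential usage test of edgeR, 13 of the 18 passed an adjusted p of 0.05, 7 with a higher share in mOPCs and 6 with a lower one, and each of the 6 genes had at least 1. Over all genes 53.4% of clusters passed, and 71.4% of genes had at least 1, so such changes were common. The members' count was 6 of 9 when clusters were joined up to 50 bp and 9 of 16 with a minimum of 0.5 TPM. Leaving out single libraries gave 10 to 13 of the 18. Over all alternatives, 4 to 6 members had at least 1 such cluster.

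Srebf2 showed the pattern most plainly, since its level barely moved. Its main cluster at 82147231 to 82147269 held 93.1 ± 8.32 TPM in mESCs and 72.0 ± 11.9 in mOPCs (SD, n = 3). The 4 clusters downstream, at 82147341 to 82147640, together held 2.53, 1.68 and 2.07% of the gene's tags in mESCs and 16.4, 15.3 and 17.6% in mOPCs. The cluster at 82147375 to 82147392 rose from 0.36 to 8.77 TPM, with an adjusted p of 2.54e-23 for its share, and that at 82147341 to 82147353 from 0.28 to 3.99. Each held less than 1 TPM in every mESC library and entered the test through mOPCs alone, so this p-value partly reflects how clusters were chosen. Both lie in the first exon of 2 of the 4 protein-coding transcripts, whereas the other 2 clusters lie in the intron behind it. The printed Srebf2 sequence ends before these starts.

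Fdft1 lost a start inside the gene. A window of 1001 bp around the 5′ end of an annotated retained-intron transcript, in an intron of both protein-coding transcripts, held 20.96, 23.8 and 20.2 TPM in mESCs and 0.87, 0.66 and 1.25 in mOPCs. That was 9.34% ± 0.64 of the gene's tags in mESCs and 0.84% ± 0.18 in mOPCs. The cluster at its most used position, 63164934, had an adjusted p of 7.53e-21 for its share. That cluster held less than 1 TPM in every mOPC library and entered the test through mESCs alone. The main window fell as well, from 210 ± 4.68 to 108 ± 18.1 TPM (SD, n = 3), so the intronic start was a small part of the drop.

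Dhcr7 used 2 regions, with their most used positions at 143823086 and 143830242. The second, its leading position, held 42.1% ± 1.71 of tags in mESCs and 40.01% ± 3.45 in mOPCs and did not separate the cell types. The upstream window, around the gene's first annotated 5′ end, had 2.56, 3.66 and 3.47 TPM in mESCs and 10.1, 8.88 and 7.28 in mOPCs, or 10.2% ± 1.89 and 21.5% ± 3.24 of tags. The window with the leading position went from 28.3 ± 1.85 to 31.1 ± 2.41 TPM, so the larger part of the rise of Dhcr7 came from the upstream region. For Idi1, a single position at 8885637, upstream of the leading one, kept 0.86 ± 0.29 TPM in mOPCs beside 1.22 ± 0.18 in mESCs. With the fall of the main cluster its share of tags went from 1.22% ± 0.07 to 7.59% ± 2.53 (SD, n = 3).

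**Figure D4:**
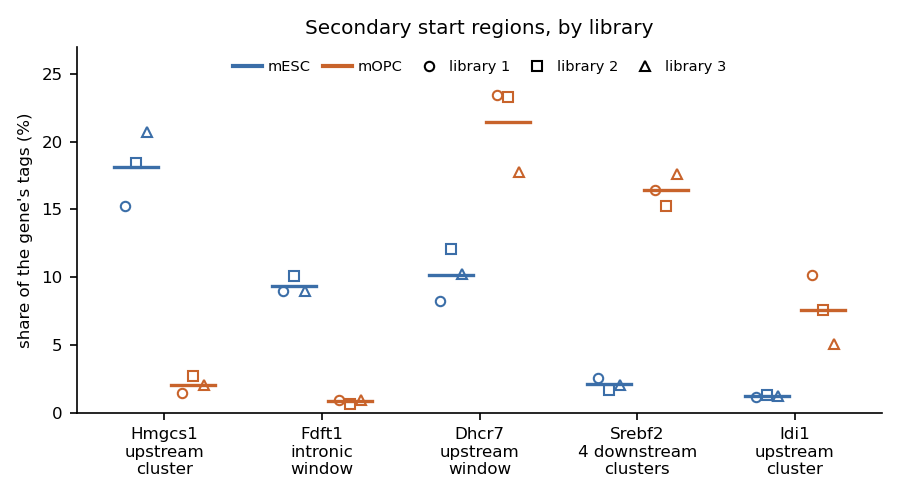
Share of a gene's tags in secondary start regions of 5 genes by library, with bars at the means. The Hmgcs1 and Fdft1 regions are lower in every mOPC library, and those of Dhcr7, Srebf2 and Idi1 are higher.

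Tags on the opposite strand within 500 bp of the 5′ ends were higher in every mOPC library than in every mESC library for all 7 genes, with an exact permutation p of 0.1 for each. Among 8222 genes with such tags, 47.4% were higher in this way and 73.1% did not overlap in either direction. Hmgcs1 stood out in size. Its opposite strand had 1.64, 1.74 and 1.36 TPM in mESCs and 20.8, 20.2 and 23.9 in mOPCs, which is 13.7-fold, while the gene's own strand fell. The annotation has no 5′ end on that strand in the window. In mOPCs the most used opposite-strand position lay 519 bp upstream of the leading start of Hmgcs1 and held 25.8% of these tags. Opposite-strand tags made up 3.196% of both strands in mESCs and 36.2% in mOPCs.

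At Insig1, opposite-strand tags rose 2.89-fold from 8.51 ± 0.83 to 24.6 ± 1.65 TPM, close to the 2.63-fold of the gene itself, and their leading position 257 bp upstream was the same in both cell types. The non-coding gene Gm26608 has an annotated 5′ end there. At Idi1, where Gm48574 starts on the opposite strand, they had 9.81 ± 1.096 in mESCs and 11.8 ± 0.52 in mOPCs while Idi1 itself fell, so that they were 8.96% of both strands in mESCs and 51.1% in mOPCs. Dhcr7 had 13.2 ± 0.48 and 21.02 ± 2.41, with Nadsyn1 annotated opposite. For Sqle, Fdft1 and Srebf2 the means stayed at or below 5.11 TPM.

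**Figure D5:**
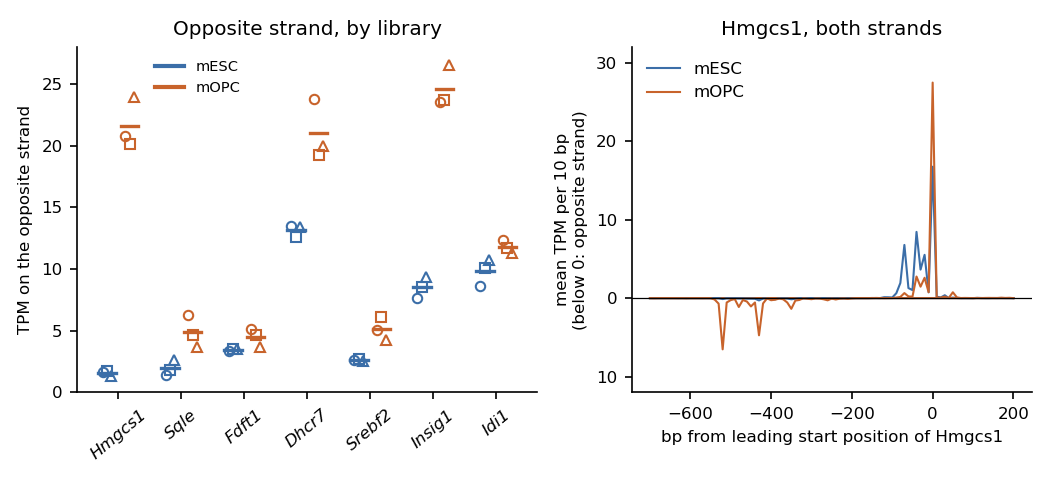
Left, TPM on the strand opposite to each gene within 500 bp of its 5′ ends, by library with bars at the means. Right, mean TPM per 10 bp around the leading start of Hmgcs1 on both strands, where the opposite strand (drawn downwards) shows mOPC tags upstream of the gene's starts and nearly none in mESCs.

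Tags on the gene's strand inside the gene but away from its 5′ ends were few, between 0.20 and 13.8 TPM on average. They were higher in every mOPC library for Sqle, Dhcr7, Srebf2 and Insig1, lower for Hmgcs1, and overlapped for Fdft1 and Idi1. Of genes with such tags 58.7% were higher in this way and 76.3% did not overlap. Srebf2 had the most, 7.31 ± 0.60 in mESCs and 13.8 ± 1.17 in mOPCs (SD, n = 3).

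The protein-coding gene with the most similar values over the 6 libraries, by Euclidean distance of log2 TPM among 14227 genes, was Gm20422 for Hmgcs1, Cast for Idi1, Mdn1 for Fdft1, Ist1 for Sqle, Git2 for Dhcr7, Fgfr1op2 for Srebf2 and Rab3gap1 for Insig1. The distances ranged from 0.11 for Hmgcs1 to 0.36 for Idi1. None of these is among the 56 related genes.

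Protein-coding neighbours did not share one direction. Over all genes tested, 42.7% were called higher and 48.5% lower in mOPCs, so calls among neighbours were common. Within 500 kb of Insig1 on chromosome 5, 5 neighbours were tested, 1 higher and 3 lower in mOPCs, with a median log2 change of -0.55 while Insig1 rose. Dpp6 and Cnpy1 changed by more than 2. Within 200 kb of Fdft1 all 6 neighbours tested were lower, among them Neil2, Gata4 and Defb30 past this size. Around Srebf2, 7 of 18 were higher and 11 lower. The 9 past this size there were Csdc2, Ccdc134 and 1500009C09Rik, which were higher, and 1700029P11Rik, Snu13, Mei1, Shisa8, Wbp2nl and Cyp2d22, which were lower. Around Dhcr7, 4 of 6 were higher, with Mrgpre and Shank2 up and Tnfrsf22 and Tnfrsf23 down by more than 2. Both neighbours that passed near Hmgcs1, Tmem267 and Nim1k, rose by more than 2 while Hmgcs1 fell. Of the 2 tested near Idi1, Gtpbp4 fell by 2.46 and the other rose by 0.48. Sqle had 1 neighbour higher and 1 lower, both by less than 0.5. Several of these changes depended on which tags were counted. With all tags inside the gene Cyp2d22 turned to 1.43, and Dpp6, Gata4, Defb30, Shisa8, Tnfrsf23, Shank2, Wbp2nl and Tmem267 changed less, by more than 1.5 times in fold. Within 100 bp of the 5′ ends Tmem267 was at 1.98. Single libraries also moved some by more than 1.5 times. Mei1 was at -7.46 without library 2 and at -5.03 without library 3 of mOPCs. Wbp2nl was at -9.11 without library 3 of mOPCs, and Shank2 at 5.30 without library 1 of mESCs. Several of the lower neighbours had almost no tags in mOPCs, so the size of their log2 values is uncertain. Mean TPM in mESCs and mOPCs were 0.79 and 0.012 for Mei1, 0.96 and 0.020 for Shisa8, 0.92 and 0 for Defb30, and 2.79 and 0.016 for Wbp2nl.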

How the data were processed

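CAGE libraries of nuclear RNA were analysed for 3 mESC and 3 mOPC samples, grouped by their labels. The deposited values are counts: each gives how many tags of a library start at 1 stranded base of mm10, not normalized. By the methods of the study, the authors trimmed reads to short tags, aligned them with bowtie and kept unique alignments, so starts in repeated sequence are missing. The submitters' processing notes name CASAVA 1.8 and BWA 0.5.9 instead, and which aligner made these files was not settled. Tags carry no molecular identifiers.

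Tags were summed within 500 bp of all 5′ ends of GENCODE vM21 genes. A tag near the ends of several genes counted for each. Counts were tested with edgeR 4.0.16 (R 4.3.3, robust quasi-likelihood fit, filterByExpr, library size as all tags, threshold 0.05). DESeq2 1.42.0, TMM, other windows, filters and 5′ ends, a replicate block and each library left out were the alternatives. Start clusters were tested with diffSpliceDGE, and single values with exact permutation tests in scipy 1.17.1. On counts simulated for 18490 genes the edgeR test recovered 200 of 200 planted changes, and 13 of 213 calls (6.10%) were false. The planted changes were at least 1 on the log2 scale, and all other genes were left unchanged. Smaller changes, such as those of Hmgcs1 and Dhcr7, and data in which most genes change were not simulated. On 23383 simulated clusters the cluster test was scored by gene. It recovered 196 of 200 genes with a planted change, and 16 of 212 genes with a called cluster (7.55%) were false. False calls of single clusters were not measured. Each library total was 16657021 tags or more. The precision of a change also depends on the gene's own tags and on the spread between libraries.

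The 7 genes, the lists and the tests were chosen with earlier results of these data known. Named besides the 7 genes are other pathway genes past the threshold with a log2 change of at least 2 in either direction, at most 5 per list, the most similar gene of each member, and neighbours past this size. Smaller changes of pathway genes are given where the text says so, chosen after their values were seen.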

Additional observations from a re-analysis of the deposited data

How the results depend on the processing

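The 6 calls among the 7 genes held, in the same direction, under all 14 alternatives, which gave 6 or 7 genes. The log2 changes ranged from -0.40 to -0.30 for Hmgcs1, from -3.39 to -3.09 for Idi1, from -1.23 to -0.95 for Fdft1, from 0.81 to 0.92 for Sqle, from 0.30 to 0.41 for Dhcr7 and from 1.22 to 1.49 for Insig1. Srebf2 was lower in mOPCs within 100 bp of the 5′ ends (-0.30, adjusted p 0.0113), where its cluster at 82147375 to 82147392 was not counted, and with DESeq2 (-0.0136). Leaving out single libraries moved it between -0.051 and 0.15. Among related genes, Rnf139 turned to 1.5999 within 100 bp. Counting all tags inside the gene, Pggt1b turned to 0.022 and the Srebf2 neighbour Cyp2d22 to 1.43. Without single libraries Pggt1b ranged from -0.19 to 0.076. The causes were not tested. The related genes that passed numbered 46 to 51 over all alternatives. Joining start clusters up to 50 bp gave 7716 calls over all genes and 6 for the members, and a minimum of 0.5 TPM gave 18914 calls, since fewer or more clusters were then tested (13310 and 37400). All 7 genes kept higher opposite-strand tags without any single library, and 6 did within 1000 bp, an alternative added after seeing the data. With the replicate number as a block, 16859 genes, 6 of the 7 and 50 of the related genes were called, and 12 of the members' clusters. Same-numbered libraries deviated together only weakly (correlations of 0.01, 0.06 and 0.01). Library 1 of mESCs and library 3 of mOPCs, whose numbers differ, reached 0.05, so the numbers gave no sign of pairing.

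Low counts limit the intronic and minor start positions, several of which rest on fewer than 100 tags per library. With 3 libraries per line the exact tests cannot fall below 0.1.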
